A study of Homo sapiens with 4 samples.

Results

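The MHC class I antigen presentation genes are 9 genes of the 20323 in the deposited table, taken by symbol: the heavy chain genes HLA-B, HLA-C, HLA-E and HLA-F, the light chain gene B2M, the peptide transporter genes TAP1 and TAP2, the tapasin gene TAPBP and the transactivator gene NLRC5. Polyadenylated RNA was sequenced from HT-1080, a human fibrosarcoma cell line, in 4 libraries. Control 1 and control 2 carry the genotype label sgNC, and 1 library each came from cells labelled sgPKA and sgALKBH5, for guides against protein kinase A and against the RNA demethylase ALKBH5. All 4 were grown in the same serum-containing medium, and no drug, cytokine or time point is named in the labels. Not stated in the labels are the kinase subunit gene that was targeted, whether the guide-treated cells were clones or pools, or whether the controls were separate cultures, so the spread between the controls may be technical.

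Class I molecules display peptides from proteins made inside the cell to CD8+ T cells, and some of them are read by inhibitory receptors of natural killer cells. The proteasome cuts the peptides, the TAP1-TAP2 transporter carries them into the endoplasmic reticulum, and tapasin holds empty heavy chain-light chain pairs at the transporter until a peptide is bound. NLRC5 is drawn to a conserved promoter module of class I genes and raises their transcription, and interferons and NF-kB raise it too. Tumour cells often carry low levels of these genes.

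In the labelled cells the mesenchymal marker gene VIM stood between 6730 and 7853 TPM (a transcript level scaled for gene length and library size), LGALS1 between 2498 and 3414 TPM and the mesenchymal S100A4 between 10.9 TPM in sgALKBH5 and 55.4 TPM in control 2. The other mesenchymal markers were higher in control 1 and sgALKBH5 than in control 2 and sgPKA. FN1, the fibronectin gene, was at 1030 and 745 TPM in the first pair and at 118 and 220 TPM in the second. SPARC was likewise at 2215 and 1742 TPM against 909 and 635 TPM, and CD44 at 1337 and 1396 TPM against 789 and 1058 TPM. Several class I genes were likewise higher in control 1 and sgALKBH5 than in control 2 and sgPKA. Those genes were highest in sgALKBH5, as was CD44, whereas FN1 and SPARC were highest in control 1. The part of these marker differences in the class I results was not tested. The summed level of 9 haematopoietic markers lay between 1.10 and 1.92 TPM per library, with CD3D between 0.524 and 1.49 TPM, CD79A between 0 and 0.368 TPM and CD2 at 0 in all 4. EPCAM was at 0 in all libraries, and the other epithelial marker, CDH1, was detected in sgALKBH5 alone, at 0.128 TPM. The summed endothelial markers lay between 0.356 and 1.06 TPM, with PECAM1 between 0.356 and 0.929 TPM and VWF between 0 and 0.054 TPM. Sequencing depth was lowest in sgPKA, with 14050867 counts in all, and highest in sgALKBH5, with 25937347. PRKACA, a catalytic subunit gene of the kinase, had 10.6 TPM in the sgPKA library where the controls had 60.5 and 70.1 TPM, and ALKBH5 had 37.5 TPM in the sgALKBH5 library where they had 80.2 and 67.6 TPM. The libraries did not pair by label: over 11629 genes with a mean of at least 1 TPM, control 1 and control 2 differed with a standard deviation of 0.585 in log2(TPM + 1), more than control 1 and sgALKBH5 with 0.390. Each knockout being 1 library, its distance from the controls could not be checked in a replicate.

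All 9 genes were detected in all 4 libraries, HLA-F in sgPKA by 2 counts only, and passed the filter on low counts. Of these, 7 lie on chromosome 6 within the MHC region, in GRCh38.p14 from HLA-F (29723434 to 29738532) through HLA-E (30489509 to 30494194), HLA-C (31268749 to 31272092), HLA-B (31353875 to 31357179), TAP2 (32821831 to 32838739) and TAP1 (32845209 to 32853704) to TAPBP (33299694 to 33314078). B2M lies on chromosome 15 (44711517 to 44718145) and NLRC5 on chromosome 16 (56989557 to 57083520).

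RefSeq promoter entries were matched for 7 of the 9 members, and the 5 that hold a kappa B match are printed, since the NF-kB subunit gene RELA is described with its own level further on; the entries of HLA-F and TAP2 hold none. Each line gives the 250 bases before the RefSeq gene start in GRCh38.p14, 5′ to 3′ on the gene's strand. Capitals mark matches to any of the 4 motifs searched on both strands: the core of the interferon-stimulated response element (ISRE, written GAAA, any 2 bases, GAAA), the kappa B consensus bound by NF-kB, TGACG (shared by the cAMP response element and the X2 box) and CCAAT (bound by NF-Y).
HLA-B, chr6:31357180-31357429, minus strand: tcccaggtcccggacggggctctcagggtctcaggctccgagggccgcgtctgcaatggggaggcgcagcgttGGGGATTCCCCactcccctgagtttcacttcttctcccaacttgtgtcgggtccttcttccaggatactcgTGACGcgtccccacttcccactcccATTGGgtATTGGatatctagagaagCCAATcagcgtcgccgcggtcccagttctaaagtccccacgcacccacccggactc
HLA-C, chr6:31272093-31272342, minus strand: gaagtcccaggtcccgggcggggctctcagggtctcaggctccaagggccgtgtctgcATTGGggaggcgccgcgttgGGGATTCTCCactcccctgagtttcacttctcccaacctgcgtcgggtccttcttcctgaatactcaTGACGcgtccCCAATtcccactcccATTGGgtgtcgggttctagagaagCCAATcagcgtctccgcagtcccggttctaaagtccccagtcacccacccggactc
B2M, chr15:44711267-44711516, plus strand: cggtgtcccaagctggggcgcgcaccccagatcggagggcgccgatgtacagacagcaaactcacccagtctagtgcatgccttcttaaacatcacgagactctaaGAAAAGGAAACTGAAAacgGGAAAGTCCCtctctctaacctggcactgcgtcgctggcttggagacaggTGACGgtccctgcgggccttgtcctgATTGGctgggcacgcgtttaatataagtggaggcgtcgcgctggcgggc
TAP1, chr6:32853705-32853954, minus strand: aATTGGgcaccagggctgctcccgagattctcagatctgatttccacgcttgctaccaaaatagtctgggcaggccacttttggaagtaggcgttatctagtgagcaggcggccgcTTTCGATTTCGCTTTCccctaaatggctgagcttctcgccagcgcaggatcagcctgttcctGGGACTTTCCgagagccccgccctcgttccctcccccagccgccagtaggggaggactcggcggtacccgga
TAPBP, chr6:33314079-33314328, minus strand: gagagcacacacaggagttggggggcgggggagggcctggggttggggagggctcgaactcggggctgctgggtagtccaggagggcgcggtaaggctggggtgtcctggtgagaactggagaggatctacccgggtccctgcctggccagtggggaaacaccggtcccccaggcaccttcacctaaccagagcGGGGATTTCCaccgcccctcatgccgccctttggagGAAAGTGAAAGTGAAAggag
In HLA-B overlapping kappa B matches begin 177 and 176 bases before the start, each on both strands, TGACG begins at 106 bases, and CCAAT on the reverse strand at 81 and 74 bases and on the forward strand at 56 bases. HLA-C holds a kappa B match at 172 bases, TGACG at 105 bases and 4 CCAAT matches. These HLA-B and HLA-C windows were identical at 89.0% of aligned positions, against 49.5% for HLA-B and B2M. B2M holds ISRE core matches that overlap each other at 144 and 138 bases, with kappa B at 125 bases and TGACG at 75 bases. TAPBP has overlapping ISRE core matches at 20 and 14 bases and kappa B at 56 bases, and TAP1 has overlapping ISRE core matches at 134 and 128 bases and kappa B at 72 bases. A second TAP1 window in RefSeq (chromosome 6, 32852762 to 32853011) holds none of the 4 motifs. Of the 8 windows of these 7 members, 5 held the ISRE core, 5 kappa B, 4 TGACG and 5 CCAAT. Among all 35116 promoter windows of the same length, 3.02% held the ISRE core, 9.96% kappa B, 21.2% TGACG and 32.0% CCAAT. A match describes letters only and is not evidence of a bound site. Sites that depart from the searched letters are missed, so a window without a match may still hold one.

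HLA-B and HLA-C encode classical heavy chains, which present peptides to T cells. HLA-B was at 29.9 TPM in control 1, 15.6 TPM in control 2, 19.9 TPM in sgPKA and 73.6 TPM in sgALKBH5. The sgALKBH5 library was thus above both controls, 2.46-fold above control 1 and 4.72-fold above control 2, while sgPKA lay between the controls. HLA-C was at 27.3 and 16.9 TPM in control 1 and control 2, 18.1 TPM in sgPKA and 43.2 TPM in sgALKBH5. It had the same order in TPM, with sgALKBH5 above both controls by 1.58-fold and 2.56-fold. In bulk RNA, fewer cells with a transcript and less transcript per cell cannot be told apart.

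Reads were shared between these near-identical genes, so each single level is uncertain. The estimated counts of HLA-B and HLA-C were not whole numbers in any library, but their sum was whole within 0.005 in 3 of the 4 libraries. The exception was sgALKBH5, at 2455.35, so its sum may still hold reads shared with further rows. The summed counts of control 1 and control 2 were 868 and 517, those of sgPKA 430 and those of sgALKBH5 2455. After TMM normalisation, a scaling for library size and composition, this came in the same order to 47.7, 28.7, 28.8 and 96.4 CPM (counts scaled to a library of fixed size). The sum in sgALKBH5 was 2.02-fold that of control 1 and 3.36-fold that of control 2. In sgPKA it matched that of control 2 to within 0.1 CPM. Taken singly on this scale, HLA-C in sgPKA was below both controls, at 13.7 CPM against 22.9 and 15.1 CPM, while HLA-B lay between them. The ratio of HLA-B to HLA-C in TPM was 1.09, 0.926 and 1.10 in control 1, control 2 and sgPKA, and 1.70 in sgALKBH5. The sources used here do not say how reads of these polymorphic genes were placed on the reference alleles.

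HLA-E, a non-classical heavy chain that presents leader peptides of other class I chains to natural killer receptors, was ordered differently from HLA-B and HLA-C. It was at 75.0 TPM in control 1, 89.8 TPM in control 2, 67.4 TPM in sgPKA and 81.2 TPM in sgALKBH5. Here control 2 was the highest library, sgALKBH5 lay between the controls and sgPKA was below both. Of the summed TPM of the 4 HLA genes, HLA-E held 55.7% and 73.0% in control 1 and control 2, 63.8% in sgPKA and 40.3% in sgALKBH5. HLA-B held 22.2%, 12.7%, 18.9% and 36.6% in the same order. HLA-E was thus the largest of these 4 genes in every library, and by the smallest share in sgALKBH5.

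HLA-F, a non-classical heavy chain that is mostly held inside the cell, was the lowest member. It was at 2.52 TPM in control 1, 0.822 TPM in control 2, 0.212 TPM in sgPKA and 3.29 TPM in sgALKBH5, from 31, 11, 2 and 58 counts. The controls together, scaled for library size, were 8.68-fold above sgPKA, with an exact 95% counting interval from 2.26 to 74.0. This interval covers counting error only, and control 1 was itself 3.06-fold above control 2.

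**Figure D1:**
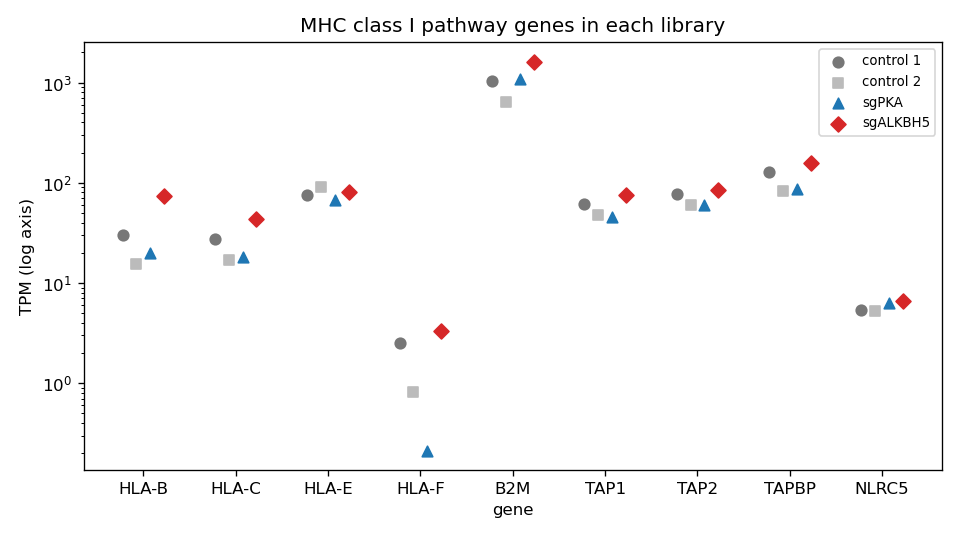
TPM on a log axis of each MHC class I pathway gene, with 1 point per library (circle control 1, square control 2, triangle sgPKA, diamond sgALKBH5). The diamond is the highest point for every gene other than HLA-E, and B2M lies above all other members in each library, from 644 to 1610 TPM.

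B2M encodes beta-2 microglobulin, the light chain shared by all class I heavy chains. Its level was 1039 TPM in control 1, 644 TPM in control 2, 1086 TPM in sgPKA and 1610 TPM in sgALKBH5. It was the most abundant member in each library and made up between 66.9% and 78.1% of the members' summed TPM. The sgALKBH5 library was 1.55-fold above control 1 and 2.50-fold above control 2. The sgPKA library was 1.05-fold above control 1 and 1.69-fold above control 2 in TPM. TPM of all genes ran high in sgPKA, however, with a median difference from the controls of 0.15 in log2(TPM + 1). In TMM-normalised counts, whose median fold change over all genes was near 0, B2M was at 531 and 350 CPM in the controls and 502 CPM in sgPKA, between them. Relative to the summed 4 HLA genes, the B2M level was 7.71 and 5.23 times as high in control 1 and control 2, 10.3 times in sgPKA and 8.0 times in sgALKBH5.

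TAP1 and TAP2 encode the subunits of the peptide transporter. TAP1 was at 61.2 TPM in control 1, 47.6 TPM in control 2, 45.3 TPM in sgPKA and 75.9 TPM in sgALKBH5. TAP2 was at 77.5, 59.9, 59.8 and 84.0 TPM in the same order. For both genes sgALKBH5 was above both controls, by 1.24-fold and 1.59-fold in TPM for TAP1 and by 0.12 and 0.48 in log2(TPM + 1) for TAP2. TAP1 was below both controls in sgPKA in TPM and in normalised counts, whereas TAP2 in sgPKA was within 0.003 of control 2 in log2(TPM + 1). The table lists TAP2 in 2 rows that share reads, and the row with fewer counts was at 17.0, 9.96, 11.6 and 18.8 TPM in control 1, control 2, sgPKA and sgALKBH5. With both rows summed, TAP2 was at 189.9 and 144 CPM in the controls, 144 CPM in sgPKA and 199.8 CPM in sgALKBH5. The level of TAP1 was 0.790, 0.796 and 0.758 times that of TAP2 in control 1, control 2 and sgPKA, and 0.903 times in sgALKBH5.

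TAPBP encodes tapasin, which bridges the transporter and the heavy chain. It was at 128 TPM in control 1, 82.7 TPM in control 2, 87.1 TPM in sgPKA and 157 TPM in sgALKBH5. Its sgALKBH5 level was 1.22-fold and 1.90-fold that of control 1 and control 2, and its sgPKA level lay between the controls in TPM but below both in normalised counts, at 128 CPM against 211 and 139 CPM.

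NLRC5 had the narrowest range of log2(TPM + 1) of the 9 members. It was at 5.43 TPM in control 1, 5.25 TPM in control 2, 6.34 TPM in sgPKA and 6.63 TPM in sgALKBH5. Both knockout libraries were above both controls in TPM and in normalised counts, by 1.17-fold and 1.21-fold in sgPKA and by 1.22-fold and 1.26-fold in sgALKBH5 on the TPM scale. The exact 95% counting intervals of NLRC5 of single libraries overlapped, from 10.5 to 13.8 CPM in control 1 and from 13.7 to 16.8 CPM in sgALKBH5.

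**Figure D2:**
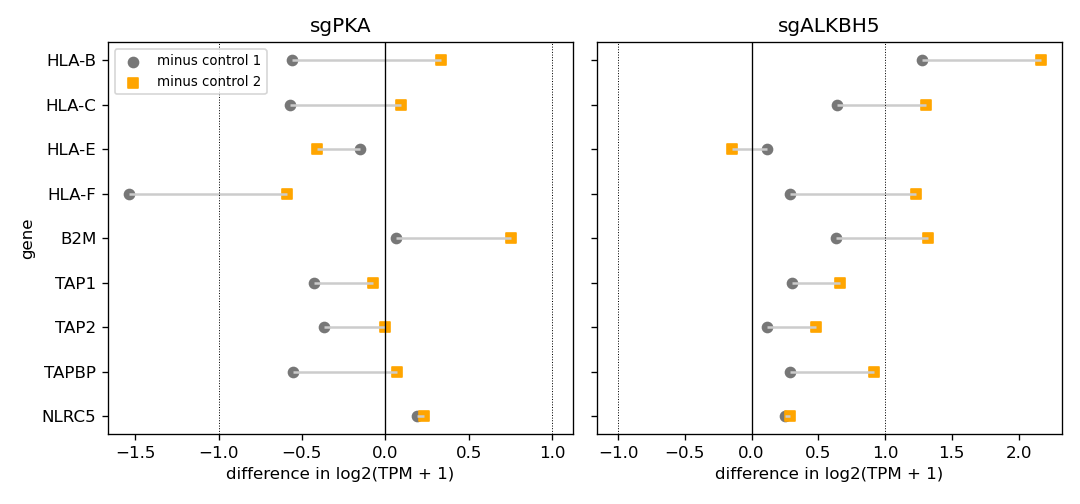
Difference in log2(TPM + 1) of sgPKA (left) and sgALKBH5 (right) from control 1 (circles) and control 2 (squares) for each gene, joined by a line; dotted lines mark a difference of 1. For sgALKBH5 both points lie right of 0 for each gene except HLA-E, and both exceed 1 for HLA-B only, at 1.27 and 2.17.

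In sgALKBH5, 8 of the 9 members were above both controls in TPM, against 39.1% of the 11629 genes, and 0 were below both, against 27.5%. The same 8 were above both in normalised counts, against 33.0% of genes, with 0 below both, against 34.3%. They were also highest of all 4 libraries in sgALKBH5 in TPM, as were 24.3% of genes. HLA-E was the exception. HLA-B was the 1 member at least 2-fold above both controls, a distance that 1.03% of all genes had, and none was that far below both, against 0.482%. The median difference of the members from the control mean was 0.60 in log2(TPM + 1), against 0.05 for all genes. It was 0.29 against control 1 and 0.92 against control 2, so its size depended on the control. With edgeR's quasi-likelihood test on counts, HLA-B had a log2 fold change of 1.66 (standard error 0.40), HLA-C one of 0.91 (0.33) and B2M one of 0.88 (0.31). The others were 0.97 for HLA-F, 0.60 for TAPBP, 0.45 for TAP1, 0.28 for NLRC5, 0.23 for TAP2 and -0.09 for HLA-E. In the same fit ALKBH5, the gene targeted in this library, stood at -1.05 (0.23) and was not called. A gene that is not called may thus still have changed. No member passed: each had a Benjamini-Hochberg adjusted p of 0.998 in edgeR, which called 0 of 13061 genes. At an unadjusted p under 0.05, edgeR counted 3 members (HLA-B, HLA-C and B2M) and 369 genes, or 2.83% of those tested. DESeq2 called 34 genes, or 0.282%, with no member among them, and limma called 0.

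For sgPKA the members had no common place against the controls. In TPM 2 of 9 (B2M and NLRC5) were above both controls, 4 (HLA-E, HLA-F, TAP1 and TAP2) were below both and 3 lay between. Of all genes, 50.3% were above both and 26.9% below both. In normalised counts 1 member was above both controls, against 39.7% of genes, and 5 were below both, against 38.3%. The median difference was -0.24 in log2(TPM + 1), against 0.15 for all genes, and its sign turned with the control, from -0.43 against control 1 to 0.07 against control 2. In log2(TPM + 1) no member was at least 2-fold from both controls, where 1.04% of genes were that far above and 1.39% that far below. Without the added 1, HLA-F in sgPKA was at 0.084 and 0.258 times the TPM of control 1 and control 2, from 2 counts. The log2 fold changes in edgeR ran from -0.48 with a standard error of 0.26 for HLA-E to 0.26 with 0.29 for NLRC5, leaving aside HLA-F at -3.05 with 1.36 from its 2 counts. PRKACA, the catalytic subunit gene, stood at -2.77 with 0.29 in this edgeR fit and was not called by it either, although DESeq2 called it. A missing call is thus no evidence of an unchanged gene. The edgeR adjusted p of the members lay between 0.531 and 0.809, with 0 of 13061 genes called. At an unadjusted p under 0.05 there were 0 members, against 1184 genes or 9.07%. DESeq2 called 123 genes, or 1.09%, with no member among them, and limma called 0.

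Set directly against each other, the knockout libraries differed in 1 direction for this pathway. All 9 members were higher in sgALKBH5 than in sgPKA in TPM, against 42.7% of genes. The distance ran from 1.05-fold for NLRC5 to 3.69-fold for HLA-B, and for HLA-F it was 15.5-fold, from only 2 counts in sgPKA. Of the members, 3 (HLA-B, HLA-C and HLA-F) were at least 2-fold apart in log2(TPM + 1), against 7.09% of all genes. The log2 fold change of sgPKA against sgALKBH5 in edgeR was -2.01 with a standard error of 0.50 for HLA-B, -1.38 with 0.40 for HLA-C and -1.06 with 0.38 for TAPBP. In edgeR the adjusted p of the members lay between 0.424 and 0.981, and 0 of 13061 genes were called. Counted at an unadjusted p under 0.05 were 5 members (HLA-B, HLA-C, HLA-F, TAP1 and TAPBP) and 1521 genes, or 11.6%. DESeq2 called HLA-B, with an adjusted p of 0.0477, among 311 genes or 2.58%, and limma called 0 genes.

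The controls also differed from each other. Control 2 was below control 1 in TPM for 8 of the 9 members, all but HLA-E, against 58.6% of all genes, with a median difference of -0.63 for the members and -0.08 for all genes. HLA-B was 1.91-fold, B2M 1.61-fold, HLA-C 1.62-fold and TAPBP 1.55-fold higher in control 1. In 6 members (HLA-B, HLA-C, HLA-F, TAP1, TAP2 and TAPBP) control 2 and sgPKA were both below control 1, and control 1 was below sgALKBH5, an order that 14.6% of genes had. Counting intervals of single libraries overlapped for some neighbours in these orders, which is no test of their difference. They were computed for the members only, so no share of all genes stands beside them. The exact 95% counting intervals of control 2 and sgPKA overlapped for HLA-B (12.0 to 15.5 and 13.1 to 17.2 CPM), HLA-C, HLA-F, TAP2 and NLRC5, and those of control 1 and sgALKBH5 overlapped for HLA-E, HLA-F, TAP2 and NLRC5.

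**Figure D3:**
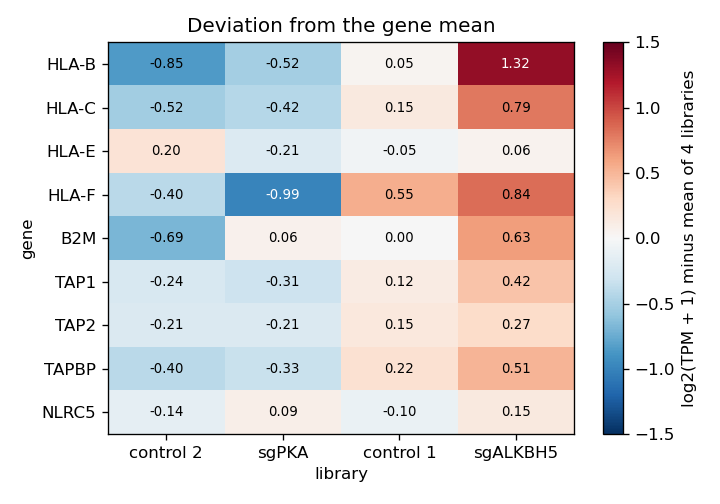
Deviation of log2(TPM + 1) from each gene's mean over the 4 libraries, with libraries ordered from control 2 to sgALKBH5 and the value printed in each cell. HLA-B spans the widest range of the 9 genes, from -0.85 in control 2 to 1.32 in sgALKBH5, and HLA-E is highest in control 2 at 0.20.

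The members' mean deviation from their own 4-library mean was 0.12 and -0.36 in control 1 and control 2, -0.31 in sgPKA and 0.55 in sgALKBH5. TAPBP lay nearest to this mean profile, at a Euclidean distance of 0.121, and HLA-B (0.932), HLA-F (0.847), HLA-E (0.778) and NLRC5 (0.654) lay farthest from it. Among 9290 other genes at a mean of at least 5 TPM, the 6 nearest were SDSL, SLC4A3, CLCF1, SHFL, SPATA2 and UBE2C, at distances from 0.052 to 0.103. SDSL, the nearest at 0.052, was at 7.90 and 5.69 TPM in control 1 and control 2, 5.83 TPM in sgPKA and 11.3 TPM in sgALKBH5. SHFL, an interferon-induced inhibitor of viral translation, lay at a distance of 0.086. It was at 16.7 and 11.2 TPM in control 1 and control 2, 11.8 TPM in sgPKA and 21.0 TPM in sgALKBH5. Whether the 6 genes share a function was not tested. The likeness rests on 4 libraries and is a description of them.

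Peptide supply was read from 15 genes of proteasome subunits and peptidases. In sgALKBH5, 8 of the 15 were above both controls, against 39.1% of all genes, and 7 below both, against 27.5%, with a median difference of 0.02 in log2(TPM + 1). The 3 immunoproteasome subunit genes, which replace the constitutive catalytic subunits under interferon, were all among the 8. PSMB9, whose gene (chromosome 6, 32854192 to 32859851) lies beside TAP1, was at 33.5 and 19.0 TPM in control 1 and control 2, 21.2 TPM in sgPKA and 58.1 TPM in sgALKBH5. PSMB8, between TAP2 and TAP1, was at 76.2, 68.3, 70.0 and 88.8 TPM in the same order, and PSMB10 at 28.2, 18.5, 24.2 and 37.2 TPM. The genes of their constitutive counterparts PSMB5, PSMB6 and PSMB7 were below both controls, at 389, 209 and 438 TPM in sgALKBH5. PSMB5 was at 412 and 400.5 TPM, PSMB6 at 211 and 214 TPM and PSMB7 at 462 and 490 TPM in the controls. All were lower still in sgPKA, with PSMB5 at 317 TPM, PSMB6 at 204 TPM and PSMB7 at 403 TPM. The proteasome activator genes PSME1 and PSME2 were at 236 and 219 TPM in sgALKBH5. PSME1 was at 188 and 128 TPM and PSME2 at 175 and 125 TPM in control 1 and control 2. The activator gene PSME3 went the other way, at 264 and 258 TPM in the controls, 284 TPM in sgPKA and 242 TPM in sgALKBH5. None of the 15 passed the edgeR test in any comparison. In sgPKA 6 were above both controls in TPM, against 50.3% of genes, and 4 below both, against 26.9%. In normalised counts this turned to 4 above both, against 39.7% of genes, and 8 below both, against 38.3%.

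**Figure D4:**
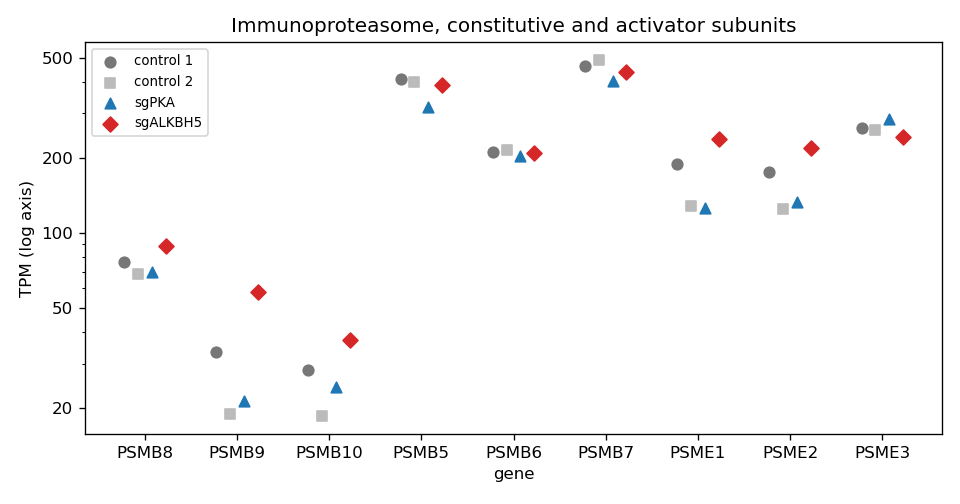
TPM on a log axis of immunoproteasome (PSMB8, PSMB9, PSMB10), constitutive (PSMB5, PSMB6, PSMB7) and activator (PSME1, PSME2, PSME3) subunit genes, with 1 point per library. The sgALKBH5 diamond is highest for the immunoproteasome subunits, PSME1 and PSME2. It lies below both controls for PSME3 and for the constitutive subunits, where the sgPKA triangle is lower still.

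Among 7 genes of endoplasmic reticulum chaperones that fold and load class I molecules, 5 were above both controls in sgALKBH5, against 39.1% of all genes, and 0 below both, against 27.5%, with a median difference of 0.33 against 0.05. CALR, the calreticulin of the loading complex, was at 1794 and 1430 TPM in control 1 and control 2, 1216 TPM in sgPKA and 2013 TPM in sgALKBH5. HSPA5, the general chaperone BiP, was at 706 and 438 TPM in the controls, 476 TPM in sgPKA and 784 TPM in sgALKBH5. In all 7 genes control 2 was below control 1, as in 58.6% of all genes, with a median of -0.53 against -0.08. In sgPKA 2 of the 7 were above both controls in TPM, against 50.3% of genes, and 2 below both, against 26.9%. In normalised counts 1 was above both in sgPKA, against 39.7% of genes, and 3 below both, against 38.3%.

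Of 15 genes for transcription factors that act on class I promoters, 12 were above both controls in sgALKBH5 and 1 below both, against 39.1% and 27.5% of all genes, with a median difference of 0.17. In sgPKA 11 were above both and 1 below both, against 50.3% and 26.9% of genes, with a median of 0.34 against 0.15. In normalised counts 9 were above both in sgALKBH5, against 33.0% of genes, and 8 in sgPKA, against 39.7%. RELA, an NF-kB subunit gene, was at 117 and 93.5 TPM in control 1 and control 2, 115 TPM in sgPKA and 138 TPM in sgALKBH5, and NFYC, a subunit of NF-Y, was between 72.5 and 77.6 TPM. IRF1, an interferon-induced activator of class I genes that was singled out after its values were seen, was at 54.9 TPM in control 1, 18.4 TPM in control 2, 45.4 TPM in sgPKA and 101.1 TPM in sgALKBH5. In sgALKBH5 its log2 fold change was 1.44 ± 0.63 (SE). No gene of this list passed the edgeR test in any comparison.

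The genes of interferon receptors, JAK kinases and their inhibitors numbered 9, of which 7 were above both controls in sgALKBH5, against 39.1% of all genes, and 5 in sgPKA, against 50.3%. IFNGR2 was at 94.8 and 77.7 TPM in control 1 and control 2, 77.2 TPM in sgPKA and 109 TPM in sgALKBH5, and JAK1 at 34.0, 35.6, 49.0 and 39.1 TPM. Interferon genes were near the detection limit. Of 7 listed, 4 (IFNG, IFNL2, IFNL3 and IFNA1) had 0 counts in all libraries, and IFNB1 had between 2 and 7 counts per library. IFNL1, a type III interferon gene, was at 1.96 and 0.990 TPM in control 1 and control 2, 0.702 TPM in sgPKA and 2.92 TPM in sgALKBH5, from 15, 8, 4 and 31 counts.

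The class I-like genes, which share the fold but mostly do not present peptides, numbered 9 at a mean of at least 1 TPM. In sgALKBH5, 4 of them were above both controls, against 39.1% of all genes, and 2 below both, against 27.5%. Their median difference was 0.42 in log2(TPM + 1), against 0.05 for all genes, but -0.01 against control 2 alone. PROCR, the endothelial protein C receptor gene, was at 78.2 and 127 TPM in control 1 and control 2, 83.6 TPM in sgPKA and 79.8 TPM in sgALKBH5. MICA, a stress-induced ligand of the natural killer receptor NKG2D, was at 24.7, 23.2, 27.8 and 20.4 TPM in the same order, in a row that shared reads with MICB. With both rows summed, control 1 had 18.1 CPM, control 2 18.7 CPM, sgPKA 19.1 CPM and sgALKBH5 17.8 CPM. MR1, which presents microbial metabolites and was named after its values were seen, was at 3.77 and 3.15 TPM in the controls, 2.80 TPM in sgPKA and 5.91 TPM in sgALKBH5. Genes that lower class I by chromatin repression or protein turnover numbered 7, with 4 above both controls in sgALKBH5, against 39.1% of all genes, and 6 in sgPKA, against 50.3%. In normalised counts 2 were above both in sgPKA, against 39.7%. TMEM127 was at 48.0 and 35.6 TPM in the controls, 51.7 TPM in sgPKA and 50.8 TPM in sgALKBH5. MARCHF9, a membrane ubiquitin ligase gene, was at 34.7 and 40.8 TPM in the controls, 30.3 TPM in sgPKA and 34.2 TPM in sgALKBH5.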

How the data were processed

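Members and gene lists were chosen with earlier results of these data known. The authors deposited 1 table of TPM and estimated counts per gene. The TPM values were scaled by the authors to the same sum in each library, and the deposited estimated counts are raw sums per gene, going by the file headers and the values. Per the submitters' processing notes, RSEM, StringTie 1.3.1, HISAT2 2.1.0 and fastp 0.18.0 were used with GRCh38.p14, in roles that are not stated. The annotation release and strand setting are not given in the sources used here. Thus overlapping and antisense genes cannot be told apart. Of rows that repeat a symbol, the one highest in mean TPM was kept.

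Rounded counts of all 4 libraries entered 1 fit with 3 groups in edgeR 4.0.16 (R 4.3.3; quasi-likelihood test, TMM, filterByExpr, Benjamini-Hochberg at 0.05), checked on simulated data. Only the 2 controls informed its spread (1 residual degree of freedom), and each knockout was assumed to vary like them. A standard error is the log2 fold change divided by the root of the F statistic. Folds on log2(TPM + 1) understate changes of low genes. Named were all members and, per list, the 2 genes with the highest mean TPM and any at least 2-fold from both controls at 5 TPM or more; the 6 genes nearest to the members' mean profile were named too. The other proteasome and marker genes, IRF1, MR1, MICB, CD1D and FCGRT were named after their values were seen, and 1 marker gene is not reported here. Counting intervals are exact and cover counting error only, since reads are not independent molecules. Alternatives were DESeq2 1.42.0, limma 3.58.1, other scalings, filters and pseudocounts, and each control left out.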

Additional observations from a re-analysis of the deposited data

How the results depend on the processing

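Where edgeR called 0 genes, DESeq2 called 123 for sgPKA, 34 for sgALKBH5 and 311 between the knockouts. With a pseudocount of 0.1 the genes at least 2-fold from both controls numbered 605 rather than 283 in sgPKA and 288 rather than 176 in sgALKBH5, and with a minimum mean of 5 TPM 100 in sgALKBH5. Leaving out each control gave 668 to 1135 such genes in sgPKA and 301 to 974 in sgALKBH5. For sgPKA the 283 genes split into 121 higher and 162 lower, and with TPM divided by TMM factors into 73 and 198. For the members in sgPKA, leaving out each control gave medians from -0.43 to 0.07, 2 to 5 members above and 4 to 7 below. With TPM divided by TMM factors 1 member was above both controls and 6 were below both, with a median of -0.35. With normalised counts (chosen after the data were seen) 1 member was above both and 5 were below both. In sgALKBH5, leaving out each control gave 8 to 9 members above and 0 to 1 below. The log2 fold change of HLA-F in sgPKA was -1.59 against control 2 alone. Leaving out each control also turned or moved other log2 fold changes by over 1.5 times, none of them called. Without control 1 and without control 2 they were, for sgPKA, 0.14 and -0.72 for HLA-B, -0.13 and -0.74 for HLA-C, 0.52 and -0.08 for B2M, -0.65 and -0.30 for HLA-E, -0.28 and -0.58 for TAP1, 0.00 and -0.35 for TAP2 and -0.12 and -0.73 for TAPBP. For sgALKBH5 they were 1.73 and 0.40 for HLA-F, -0.25 and 0.10 for HLA-E, 0.42 and 0.06 for TAP2 and 0.93 and 0.33 for TAPBP. Across the other settings, 125 of 126 members' log2 fold changes kept their direction and their side of the threshold. The exception was HLA-B between the knockouts, called by DESeq2 with a log2 fold change of -2.02. Summed counts of the 4 HLA genes gave 0.41 for sgALKBH5 against control and -0.89 for sgPKA against sgALKBH5. The depth limits HLA-F most, since 3 counts are 0.201 CPM in sgPKA. No paired analysis was possible because each knockout has 1 library.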

Other observations

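Outside the members, MICB, a ligand of the natural killer receptor NKG2D that is related to MICA, was chosen after its values were seen. It had 2 counts in each control, 0 in sgPKA and 67 in sgALKBH5, where it was at 2.04 TPM. The row shared reads with MICA, since the estimated counts of each were not whole in sgALKBH5 while their sum was 452, whole within 0.005, so this level is uncertain. CD1D, a lipid-presenting class I-like gene, had 27 counts in control 1 and 29 in sgALKBH5, and 0 in both control 2 and sgPKA. FCGRT, the neonatal Fc receptor gene, had 12 and 31 counts in control 1 and control 2, 0 in sgPKA and 47 in sgALKBH5. With 1 library per knockout, these counts describe the libraries.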
